A study of Mus musculus with 768 samples.

Results

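Genes that make cholesterol, fatty acids and sphingolipids were examined in single Schwann cells of the adult mouse sciatic nerve. The 41 members were all found in a table of 25700 genes. They were listed by name and not by their values, but with earlier results of these data known. The members fell into 4 branches. These were 14 enzymes of sterol synthesis, 6 regulators, 12 enzymes of fatty acid synthesis, elongation and desaturation, and 9 enzymes of sphingolipid synthesis. The regulators act on sterol-dependent transcription, except Stard4, a sterol carrier listed with them. The data came from 768 cells isolated at postnatal day 60 and sequenced with Smart-Seq2, a full-length protocol that reports reads and not molecules, on 2 plates of 384 cells. Each plate was 1 biological replicate and pooled males and females. The mice carried P0Cre, a Cre recombinase driven by the myelin protein zero promoter, with a Cre-dependent eYFP reporter and a ubiquitous DsRed reporter, and eYFP-positive cells were sorted from enzymatically digested nerves. All cells shared this genotype, age and treatment, so the groups compared below are cell classes found in the data.

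Schwann cells that wrap large axons build myelin, a stack of membranes rich in cholesterol and in galactosylated sphingolipids with very long acyl chains. The sterol pathway runs from acetyl-CoA through mevalonate, farnesyl diphosphate, squalene and lanosterol to cholesterol. SREBP transcription factors are escorted by SCAP and held in the endoplasmic reticulum by INSIG proteins when sterols are plentiful. Fatty acid synthase makes palmitate, which ELOVL enzymes lengthen and SCD and FADS enzymes desaturate. Serine palmitoyltransferase starts the sphingolipid branch, ceramide synthases attach the acyl chain, and UGT8 and GAL3ST1 turn ceramide into galactosylceramide and sulfatide.

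A minimum of 1500 detected genes left 674 cells, 340 on plate 1 and 334 on plate 2. Clustering without the members and 60 other lipid genes, 101 in all, gave 5 clusters, which were named from lists of marker genes. Clusters 2 and 4 were called mSC-like (myelinating) and held 132 cells on plate 1 and 76 on plate 2. Clusters 0, 1 and 3 were called nm(R)SC-like (non-myelinating, Remak) and held 208 and 258 cells. Cluster 3, with 54 and 55 of these cells, was led by Ednrb, Tagln2 and Postn. Apoe and Scn7a were among the leading genes of clusters 0 and 1 but not of cluster 3. A list of 6 cell-cycle genes summed to 623 and 17.2 CPM among nm(R)SC-like cells and to 28.1 and 10 CPM in mSC-like cells. The part of cluster 3 and of cycling cells in the ratios below was not tested. The 10 myelinating markers summed to 70700 and 73900 CPM (reads scaled to 1000000 per sum) in mSC-like cells of plates 1 and 2, against 13500 and 7450 CPM among nm(R)SC-like cells. The 11 non-myelinating markers ran the other way, at 336 and 328 CPM against 4030 and 3900 CPM. Non-myelinating cells of plate 1 carried more myelin transcript than those of plate 2: Ncmap, which encodes a protein of non-compact myelin, stood at 465 against 3.27 CPM. A list of 16 genes induced by tissue dissociation summed to 11000 and 27200 CPM in mSC-like cells, against 11600 and 14000 CPM among nm(R)SC-like cells. A further split used Mfap5, a microfibril-associated gene that led cluster 4: at a limit of 50 CPM, 68 and 19 mSC-like cells were Mfap5-positive and 64 and 57 were Mfap5-negative. Reads per cell ranged from 1025 to 2581404 on plate 1 and from 1454 to 4076083 on plate 2.

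Among the 8 members that passed the test between classes, and the 1 within mSC-like cells, 7 had an entry in the RefSeq promoter table (GRCm38.p6), of the 33 members that had one. Stretches of 150 bases directly before the start site are shown for the 4 that held a CCAAT box, the binding letters of NF-Y, a factor that acts with SREBP on sterol genes. Capitals mark CCAAT or its reverse complement.
Hmgcs1, chr13:119690201-119690350, plus strand: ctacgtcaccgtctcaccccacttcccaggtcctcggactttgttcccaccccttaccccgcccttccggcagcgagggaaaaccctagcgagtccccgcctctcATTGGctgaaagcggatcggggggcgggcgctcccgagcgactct
Mvd, chr8:122443423-122443572, minus strand: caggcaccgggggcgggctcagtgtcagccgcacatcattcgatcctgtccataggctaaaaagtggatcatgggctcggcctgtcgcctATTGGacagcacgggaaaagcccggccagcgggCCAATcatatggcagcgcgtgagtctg
Msmo1, chr8:64733579-64733728, minus strand: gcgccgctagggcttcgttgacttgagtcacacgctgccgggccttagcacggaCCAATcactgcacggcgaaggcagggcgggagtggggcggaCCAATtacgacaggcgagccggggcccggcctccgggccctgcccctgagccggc
Elovl1, chr4:118427943-118428092, plus strand: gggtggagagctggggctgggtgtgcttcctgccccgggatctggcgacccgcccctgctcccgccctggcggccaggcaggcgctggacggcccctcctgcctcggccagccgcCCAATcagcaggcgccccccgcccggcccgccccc

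The box began 45 bases before the start site in Hmgcs1, 60 and 27 bases before it in Mvd, 96 and 55 in Msmo1 and 35 in Elovl1. Elovl6, Cers2 and Ugt8a held none in the 150 bases. Over windows from 250 bases before to 50 bases after each start, CCAAT on either strand was present in 11 of 11 sterol enzymes, 4 of 5 regulators, 6 of 9 fatty acid genes and 5 of 8 sphingolipid genes. The share was 43.2% of the 9684 genes tested between the classes that had a promoter entry. Counted by window, since a gene with several start sites has more chances, it was 78.6% of 14 sterol windows and 38% of the windows of tested genes. A classical sterol regulatory element, TCACNCCAC on either strand, occurred in 1 sterol enzyme, Hmgcs1, as TCACCCCAC beginning 137 bases before the start. It was found in 1.35% of the tested genes and in no other of the 33 members with a promoter entry. Members without an entry, Fdps and Fdft1 among them, were not searched for either motif. These matches describe letters, and binding was not measured.

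The members took a larger share of the reads in mSC-like cells. Their summed level was 12775 and 13816 CPM in mSC-like cells of plates 1 and 2, against 5391 and 5130 CPM among nm(R)SC-like cells, a fold of 2.37 and 2.69. The sterol enzymes had the largest fold, from 1363 and 1738 CPM to 4255 and 5597 CPM, or 3.12 and 3.22 times. The sphingolipid enzymes went from 1489 and 1359 CPM to 3528 and 3320 CPM, a fold of 2.37 and 2.44. The fatty acid genes went from 2191 and 1598 CPM to 4572 and 4249 CPM, and the regulators from 348.6 and 435.5 CPM to 419.4 and 650.0 CPM. These sums are descriptions without a test, and they weight cells by their depth.

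**Figure D1:**
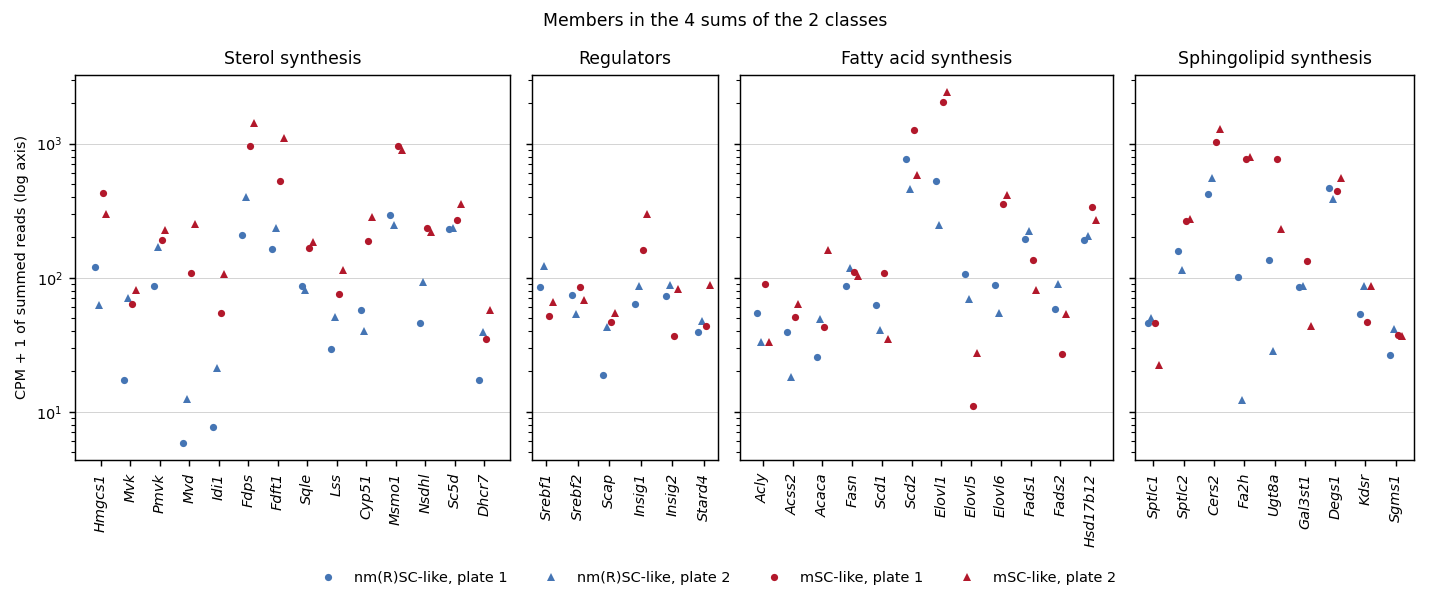
Level of each of the 41 members in the 4 sums of reads, as CPM + 1 on a log axis; blue marks nm(R)SC-like and red mSC-like cells, circles plate 1 and triangles plate 2. In the sterol panel all red marks of a plate lie above the blue marks of the same plate, while Elovl5, Fads1 and Fads2 in the fatty acid panel show the opposite order.

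Each gene was tested with edgeR's quasi-likelihood test on 4 sums of reads (2 classes on 2 plates), with the plate as a block and Benjamini-Hochberg adjustment over all genes. Of 13288 genes tested, 1.5% passed at an adjusted p of 0.05 as higher in mSC-like cells and 1.67% as higher in nm(R)SC-like cells. Of the 41 members, all of which were tested, 8 were called higher in mSC-like cells and 0 were called lower. DESeq2 called 17 higher and 1 lower, Elovl5, against 4.79% and 6.52% of all genes by the same tool. At an unadjusted p of 0.05, 20 of the 41 passed, against 11.9% of all genes. The median gene moved by -0.11 on the log2 scale and the median member by 1.00. In 22 of the 41 members both mSC-like sums lay above both nm(R)SC-like sums, which held for 15.4% of all genes tested. The reverse order held for 4 members, Srebf1, Elovl5, Fads1 and Fads2, and for 25.2% of all genes. Without the plate as a block, 0 members were called, against 43 of all 13288 genes. Leaving out the cell with most reads of each gene left 2 calls, Mvd and Ugt8a, against 157 of all 11937 genes tested. Ratios for the other 6 of the 8 members were then 2.05 to 3.04. The 8 members had a positive ratio on each plate alone.

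All 14 sterol enzymes had a higher level in mSC-like cells on both plates, an order seen in 23.4% of all genes, and 5 passed the test. Their median log2 ratio was 1.94, and the smallest was 0.56, for Sc5d. The calls are given in the order of the pathway. Hmgcs1, the cytosolic HMG-CoA synthase (chr13:119690379-119708260), stood at 119.1 and 61.1 CPM among nm(R)SC-like cells and at 426 and 296 CPM in mSC-like cells of plates 1 and 2. The groups did not overlap, and the log2 ratio was 2.21 ± 0.34 (SE, adjusted p = 0.0332, edgeR). Mvd, mevalonate diphosphate decarboxylase (chr8:122433601-122443422), was at 4.87 and 11.5 CPM among nm(R)SC-like cells and at 107 and 252 CPM in mSC-like cells. Its log2 ratio of 4.61 ± 0.41 (SE, adjusted p = 0.00564, edgeR) was the largest in the branch. Few cells carried it: 47 of 132 and 15 of 76 mSC-like cells had any read, and 27 of 208 and 15 of 258 cells in the non-myelinating class did.

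The farnesyl and squalene steps followed. Fdps, farnesyl diphosphate synthase (chr3:89093588-89101959), the sterol enzyme with the highest level per kilobase in mSC-like cells on both plates, was at 209.0 and 396 CPM among nm(R)SC-like cells and at 960.0 and 1426 CPM in mSC-like cells. Its log2 ratio was 2.17 ± 0.33 (SE, adjusted p = 0.0315, edgeR). A gene model on the same strand, Gm43738, shares 1124 exonic bases with Fdps, so the counting could have split its reads. A single cell held 32.5% of the Fdps reads of mSC-like cells on plate 2. Fdft1, squalene synthase (chr14:63145150-63179578), was at 163 and 235 CPM among nm(R)SC-like cells and at 529 and 1103 CPM in mSC-like cells, with a log2 ratio of 2.11 ± 0.34 (SE, adjusted p = 0.0386, edgeR). It shares 774 exonic bases with Ctsb on the other strand, as Elovl1 and Cers2 share 53 and 75 with Cdc20 and Setdb1, and the strand setting of the counting was not given in the sources used here. Msmo1, which removes methyl groups from the sterol ring (chr8:64718139-64733792), was at 294 and 245 CPM among nm(R)SC-like cells and at 966 and 899 CPM in mSC-like cells. Its log2 ratio was 1.95 ± 0.32 (SE, adjusted p = 0.0405, edgeR). In these 3 genes both mSC-like sums lay above both nm(R)SC-like sums.

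Of the sterol enzymes that missed the threshold, Idi1, Cyp51 and Nsdhl had ratios of similar size to some of those called. Idi1, isopentenyl diphosphate isomerase, was at 6.64 and 20.3 CPM among nm(R)SC-like cells and at 53.5 and 105.8 CPM in mSC-like cells, with a log2 ratio of 2.84 ± 0.55 (SE, adjusted p = 0.0674, edgeR). Cyp51, lanosterol demethylase, had a log2 ratio of 2.43 ± 0.43 (SE, adjusted p = 0.0509, edgeR) and Nsdhl, a dehydrogenase that acts after it, 1.94 ± 0.42 (SE, adjusted p = 0.0969, edgeR). Lss, Sqle, Mvk, Dhcr7 and Pmvk had smaller ratios, between 0.94 and 1.44. Among 11 genes of sterol uptake, transport, efflux, storage and regulation edgeR called 0, with 0 at an unadjusted p under 0.05. Their median log2 ratio was -0.21. DESeq2 called 1 of these 11 genes higher and 1 lower.

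Among the regulators 0 of 6 passed edgeR's test, 1 had an unadjusted p under 0.05, and the median log2 ratio was 0.54. DESeq2 called 1, Insig1. Insig1, which retains the SREBP-SCAP complex and is itself induced by SREBP, was nearest: it was at 62.3 and 85.4 CPM among nm(R)SC-like cells and at 159.7 and 296.5 CPM in mSC-like cells, with a log2 ratio of 1.73 ± 0.35 (SE, adjusted p = 0.0745, edgeR). Its relative Insig2 was at 72.6 and 87.1 CPM among nm(R)SC-like cells and at 35.7 and 81.6 CPM in mSC-like cells. Srebf1, which encodes the SREBP more active on fatty acid genes, was at 83.9 and 121.5 CPM among nm(R)SC-like cells and at 51.2 and 65.1 CPM in mSC-like cells. The Srebf1 groups did not overlap, but the log2 ratio of -0.66 ± 0.39 (SE, adjusted p = 0.644, edgeR) did not pass. Srebf2, the main sterol SREBP, was at 73.9 and 53.0 CPM among nm(R)SC-like cells and at 84.5 and 67.0 CPM in mSC-like cells, and these overlapped. Scap and Stard4, a sterol carrier, had ratios of 1.00 ± 0.61 (SE) and 0.67 ± 0.50 (SE).

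The fatty acid branch was divided. Of its 12 members 2 passed as higher in mSC-like cells and 0 as lower, with 9 positive and 3 negative ratios and a median of 0.60. Both calls were elongases. Elovl1, which extends saturated chains to very long lengths (chr4:118428093-118432953), was at 521.3 and 247.1 CPM among nm(R)SC-like cells and at 2041 and 2427 CPM in mSC-like cells. Per kilobase of exon it was the highest member in mSC-like cells on both plates, at 748.5 and 890.2 CPM per kb. Its log2 ratio was 2.78 ± 0.46 (SE, adjusted p = 0.0409, edgeR). Elovl6, which extends palmitate (chr3:129532355-129638495), was at 87.7 and 54.0 CPM among nm(R)SC-like cells and at 355 and 416 CPM in mSC-like cells, with a log2 ratio of 2.63 ± 0.40 (SE, adjusted p = 0.0298, edgeR).

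The 3 members with negative ratios did not pass the test. Elovl5, an elongase of polyunsaturated fatty acids, was at 106.2 and 68.6 CPM among nm(R)SC-like cells and at 10.1 and 26.3 CPM in mSC-like cells, with a log2 ratio of -2.24 ± 0.71 (SE, adjusted p = 0.269, edgeR). The desaturase Fads1 had a log2 ratio of -0.84 ± 0.39 (SE, adjusted p = 0.51, edgeR) and Fads2 one of -0.80 ± 0.48 (SE, adjusted p = 0.647, edgeR). All 3 were lower on both plates, and 1 cell held 54.4% of the Elovl5 reads of mSC-like cells on plate 2. Fasn, fatty acid synthase, was at 85.1 and 117.4 CPM among nm(R)SC-like cells and at 109.0 and 101.1 CPM in mSC-like cells. Scd2, a delta-9 desaturase, was second in the branch per kilobase on plate 1 but not on plate 2, with sums of 774 and 459 CPM among nm(R)SC-like cells and 1274 and 587 CPM in mSC-like cells, which overlapped. Acly, Acss2, Acaca, Scd1 and Hsd17b12 had ratios between 0.46 and 1.41, none called. Of 19 further fatty acid genes 15 were tested by edgeR and 0 passed, with 5 at an unadjusted p under 0.05. DESeq2 called 3 higher and 2 lower.

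The sphingolipid branch held 1 call among 9 members and a median log2 ratio of 0.37. Ugt8a, which galactosylates ceramide (chr3:125865271-125938619), was at 135.6 and 27.2 CPM among nm(R)SC-like cells and at 763 and 231.5 CPM in mSC-like cells, with a log2 ratio of 2.94 ± 0.36 (SE, adjusted p = 0.016, edgeR). The level was lower on plate 2 in both classes, and 1 cell held 52.6% of the nm(R)SC-like reads of plate 2. Fa2h, which hydroxylates the acyl chain of myelin galactolipids (chr8:111345135-111393824), had the larger ratio but the wider spread. It was at 100.2 and 11.3 CPM among nm(R)SC-like cells and at 769 and 797 CPM in mSC-like cells, a log2 ratio of 4.69 ± 0.90 (SE, adjusted p = 0.0657, edgeR) that was 2.93 on plate 1 and 6.02 on plate 2. In nm(R)SC-like cells both Fa2h and Ugt8a were higher on plate 1, as Ncmap was, and the part of that in the ratios was not tested.

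Cers2, the ceramide synthase for very long chains (chr3:95314791-95323599), was second only to Elovl1 per kilobase in mSC-like cells on both plates. It stood at 419 and 558 CPM among nm(R)SC-like cells and at 1032 and 1278 CPM in mSC-like cells, with a log2 ratio of 1.40 ± 0.32 (SE, adjusted p = 0.11, edgeR). Sptlc2, a subunit of serine palmitoyltransferase, had a ratio of 1.15 ± 0.34 (SE), and its partner Sptlc1 one of -0.46 ± 0.65 (SE). Degs1, Kdsr and Sgms1, enzymes of general ceramide and sphingomyelin synthesis, had ratios between 0.05 and 0.37. Gal3st1, the sulfatide-forming enzyme, was higher on plate 1 (log2 ratio 0.65) and lower on plate 2 (-1.004). Of 23 further sphingolipid genes 21 were tested by edgeR and 0 passed, with 1 at an unadjusted p under 0.05. DESeq2 called 1 higher and 2 lower.

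**Figure D2:**
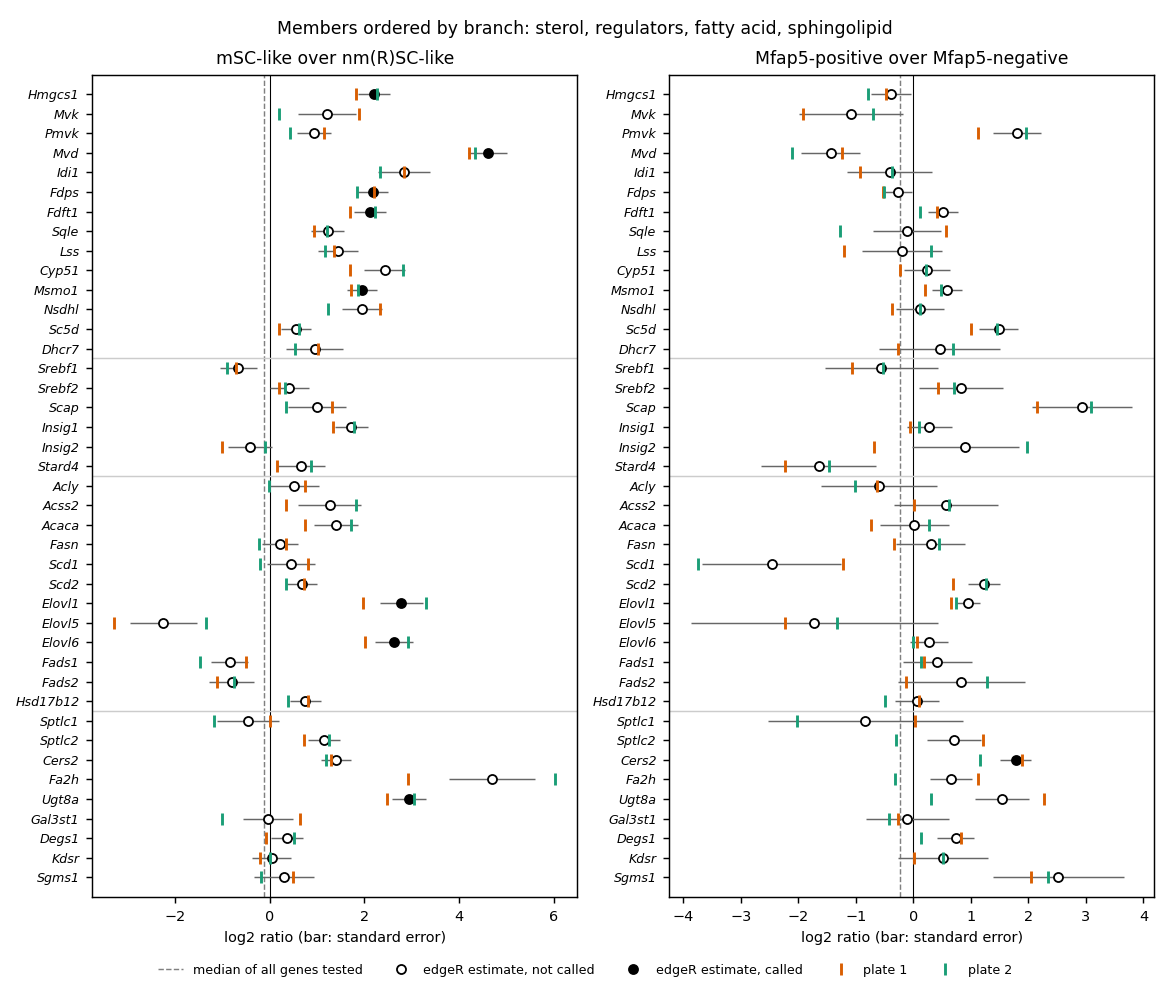
Log2 ratio of each member between the classes (left) and between Mfap5-positive and Mfap5-negative mSC-like cells (right); circles are edgeR estimates with their standard errors, filled where called, ticks are the ratios of single plates with a pseudocount of 1 CPM, and the dashed line is the median of all genes tested. The left panel shows 8 filled circles, all positive, and the right panel 1, Cers2.

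Presence in single cells differed from gene to gene. Cells were thinned to 100000 reads, which left 91 and 73 mSC-like and 132 and 240 nm(R)SC-like cells, and a gene counted as present at 5 or more thinned reads. Fa2h was present in 81.6% ± 1.13 (SD, n = 2 plates) of mSC-like cells and in 8.31% ± 6.46 of the other class. Elovl1 was present in 90.1% ± 9.29 and 34.2% ± 22.4 (SD, n = 2 plates) of the classes, and Ugt8a in 53.1% ± 22.8 and 10.8% ± 9.37. Mvd reached 23.3% ± 5.87 of mSC-like cells and 2.01% ± 0.696 of the other class (SD, n = 2 plates). Msmo1 and Cers2 were widely present in both: Msmo1 in 70.1% ± 8.09 and 43.8% ± 13, and Cers2 in 72.7% ± 21.5 and 56.3% ± 18.9. With 2 plates the exact permutation test cannot pass the threshold, so no p is given.

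The summed sterol level of a cell varied widely within each class. In mSC-like cells its 10th percentile, median and 90th percentile were 531, 3161 and 9651 CPM on plate 1 and 174, 3180 and 10054 CPM on plate 2. In nm(R)SC-like cells the medians were 1193 and 1116 CPM, with 90th percentiles of 3243 and 3801 CPM. The ranges of the classes overlapped. Sphingolipid levels had medians of 3020 and 2498 CPM in mSC-like cells and 1179 and 952.5 CPM among nm(R)SC-like cells.

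**Figure D3:**
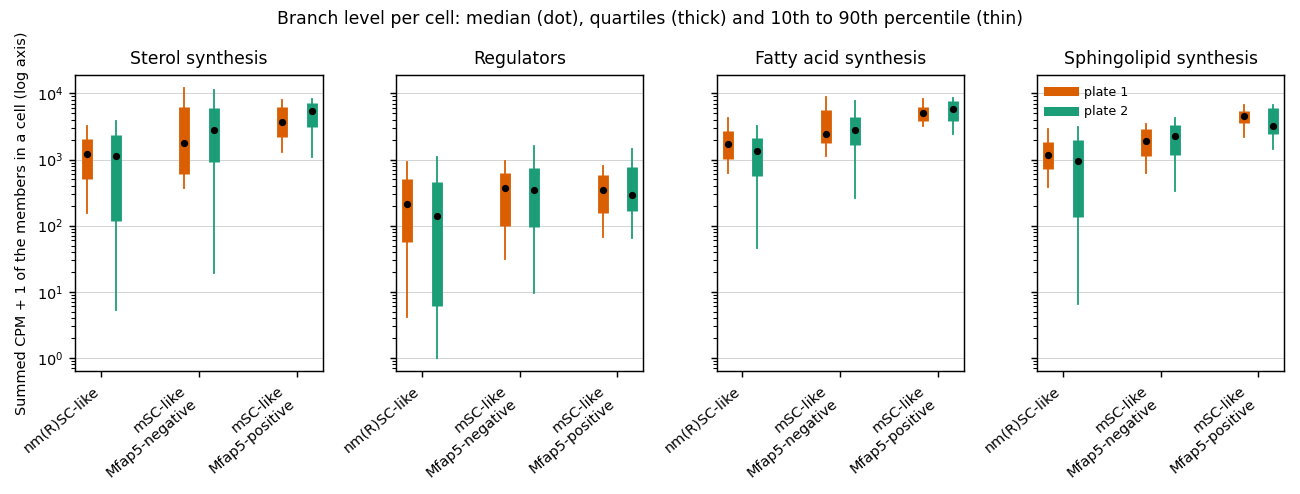
Summed CPM + 1 of a branch in single cells on a log axis, by cell group and plate; dots are medians, thick bars quartiles and thin bars the 10th to 90th percentile. Sterol levels spread further in Mfap5-negative than in Mfap5-positive mSC-like cells, with quartiles of 613 and 6280 CPM against 2183 and 6313 CPM on plate 1.

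Within mSC-like cells the branches were compared between Mfap5-positive and Mfap5-negative cells in the same way. Of 11328 genes tested 0.768% were called higher in Mfap5-positive and 0.282% higher in Mfap5-negative cells, and the median gene moved by -0.22. Of the 41 members 1 was called, higher in Mfap5-positive cells, and 8 had an unadjusted p under 0.05. The share of all genes at that unadjusted p was 7.88%. DESeq2 called 7, all higher, against 4.86% of all genes higher and 2.85% lower by the same tool. In 11 members both Mfap5-positive sums lay above both others, against 14.4% of all genes. In 6 members the order was reversed, against 24.5% of all genes. The 10 myelinating markers also differed in sum between these cells, at 98600 and 131000 CPM in Mfap5-positive and 37700 and 54500 CPM in Mfap5-negative cells. Pmp22 made up most of each sum, at 83200 and 114000 CPM in Mfap5-positive cells against 26100 and 37400 CPM. Mal, Drp2, Cldn19 and Gjb1 were also higher in Mfap5-positive cells on both plates. Mag, Pllp and Egr2 were lower there on both plates, and Prx and Ncmap differed in direction between plates. The 16 genes induced by tissue dissociation stood at 6430 and 14100 CPM against 16300 and 31700 CPM. Fos made up most of each sum, at 3870 and 8230 CPM in Mfap5-positive against 10300 and 19600 CPM in Mfap5-negative cells. Some of the list ran the other way on 1 plate: Dusp1 and Fosb on plate 2, and Ier3, Hspa1a and Hspa1b on plate 1. The 11 non-myelinating markers stood at 55.6 and 14.7 CPM against 668 and 434 CPM. Ednrb made up most of the Mfap5-negative sums, at 378 and 362 CPM, against 7.57 and 10.1 CPM in Mfap5-positive cells. Ncam1 added 159 and 55.4 CPM to the Mfap5-negative sums. Cdh2 ran the other way, at 15.7 and 2.13 CPM in Mfap5-positive against 1.37 and 0.145 CPM in Mfap5-negative cells. The 5 endothelial markers stood at 188 and 168 CPM against 12.6 and 12.7 CPM. The endothelial sum of Mfap5-positive cells was nearly all Egfl7, at 136 and 123 CPM, and Kdr, at 51.8 and 45.4 CPM. Pecam1, Cldn5 and Cdh5 were at 0.458 CPM or less in every sum. The mitochondrial share of reads was 1.71% and 0.935% against 4.18% and 2.32%. The part of these in the ratios below was not tested. On plate 2 a single cell held over 50% of the reads for 17 of 41 members among the 19 Mfap5-positive cells and for 9 among the 57 Mfap5-negative cells, and for 0 in either group of plate 1.

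The called member was Cers2. It was at 418 and 971 CPM in Mfap5-negative and at 1552 and 2178 CPM in Mfap5-positive cells, without overlap, and its log2 ratio was 1.78 ± 0.27 (SE, adjusted p = 0.022, edgeR). Cers2 was not called without the plate as a block. Sphingolipid members had a median log2 ratio of 0.71, with 7 of 9 positive. Ugt8a was at 248 and 218 CPM in Mfap5-negative and at 1200.0 and 270.1 CPM in Mfap5-positive cells, so its difference was large on plate 1 only. Sgms1, a sphingomyelin synthase, was at 12.82 and 16.97 CPM in Mfap5-negative and at 55.9 and 90.3 CPM in Mfap5-positive cells, with a log2 ratio of 2.52 ± 1.14 (SE, adjusted p = 0.65, edgeR). A single cell held 88.9% of its Mfap5-negative reads on plate 2, and the ratio ran from 2.04 to 4.15 over the alternatives. Fa2h differed in direction between plates.

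No sterol enzyme was called by edgeR, 3 had an unadjusted p under 0.05, and DESeq2 called 2 higher. The branch sums were 4359 and 5518 CPM in Mfap5-negative and 4168 and 5827 CPM in Mfap5-positive cells, and 7 members had positive and 7 negative ratios. Pmvk, phosphomevalonate kinase, was at 67.3 and 76.2 CPM per kb in Mfap5-negative and at 147.8 and 296.6 CPM per kb in Mfap5-positive cells, with a log2 ratio of 1.80 ± 0.42 (SE, adjusted p = 0.117, edgeR). Sc5d, sterol C5 desaturase, had a log2 ratio of 1.48 ± 0.35 (SE, adjusted p = 0.118, edgeR). Mvd, the next enzyme after Pmvk, was at 155.9 and 314 CPM in Mfap5-negative and at 65.7 and 71.8 CPM in Mfap5-positive cells, a log2 ratio of -1.44 ± 0.52 (SE, adjusted p = 0.415, edgeR). A single cell held 62.1% of the Mvd reads of Mfap5-positive cells on plate 2.

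Among the regulators Scap was at 15.5 and 17.6 CPM in Mfap5-negative and at 71.9 and 157.3 CPM in Mfap5-positive cells, with a log2 ratio of 2.94 ± 0.87 (SE, adjusted p = 0.252, edgeR). A single cell held 91.2% of its Mfap5-negative reads on plate 2, and the ratio ran from 2.15 to 5.70 over the alternatives. Stard4 ran the other way, at 74.6 and 103.7 CPM against 15.1 and 37.0 CPM, with 73.4% of the Mfap5-positive reads of plate 2 in 1 cell. Scd2 had a log2 ratio of 1.23 ± 0.28 (SE, adjusted p = 0.115, edgeR) and Elovl1 one of 0.95 ± 0.21 (SE, adjusted p = 0.103, edgeR). Scd1, the other delta-9 desaturase in the list, was at 157.3 and 44.8 CPM in Mfap5-negative and at 66.7 and 2.41 CPM in Mfap5-positive cells. Elovl5 was at 18.2 and 31.2 CPM in Mfap5-negative and at 3.10 and 11.9 CPM in Mfap5-positive cells. On plate 2 a single Mfap5-positive cell held 76.5% of the Scd1 reads, and the highest cell for Elovl5 held 96.4%. Of the other lipid genes 2 were called higher in Mfap5-positive cells: Abcg1, a sterol exporter, with a log2 ratio of 2.76 ± 0.37 (SE, adjusted p = 0.0123, edgeR), and Elovl7, a further elongase, with 4.05 ± 0.54 (SE, adjusted p = 0.0123, edgeR).

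**Figure D4:**
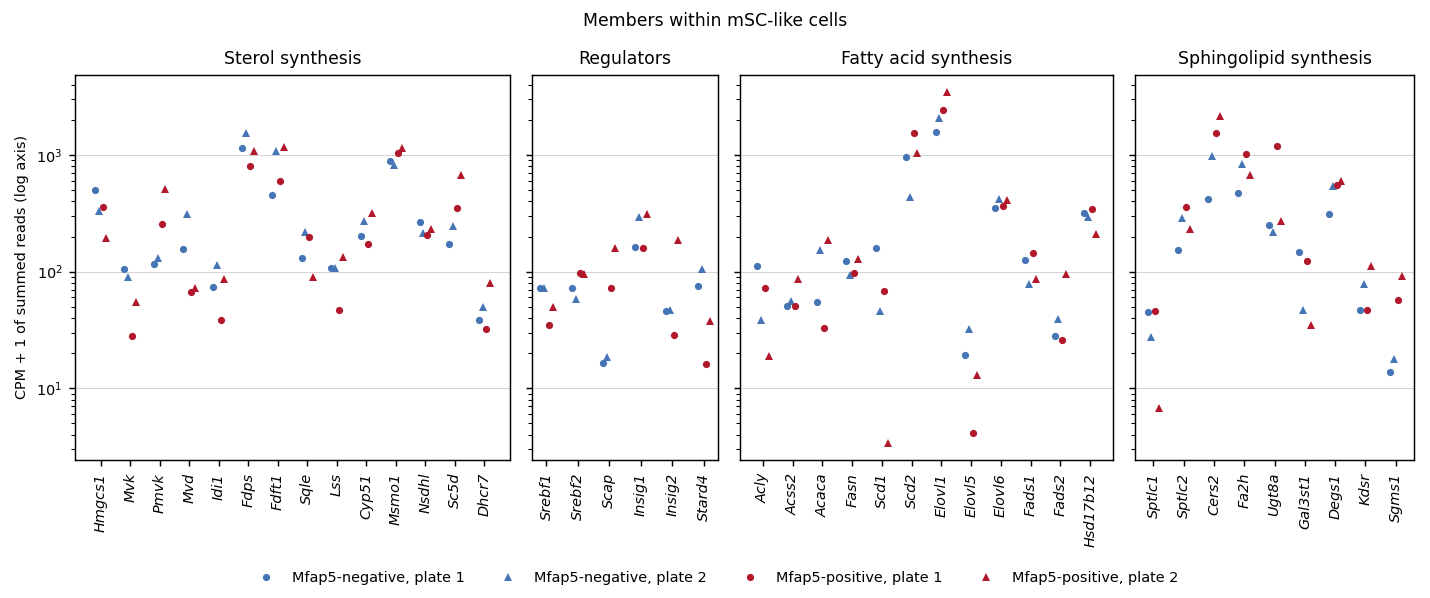
Level of each member in Mfap5-negative (blue) and Mfap5-positive (red) mSC-like cells, as CPM + 1 on a log axis, with circles for plate 1 and triangles for plate 2. Cers2 shows both red marks above both blue marks, as do Elovl1 and Scap, while Mvd and Stard4 show the opposite.

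Branch levels varied together across mSC-like cells. The correlation of log2(summed CPM + 1) between sterol and fatty acid levels was 0.57 over 132 cells of plate 1 and 0.43 over 76 cells of plate 2. It was 0.57 and 0.29 between sterol and sphingolipid levels and 0.56 and 0.48 between fatty acid and sphingolipid levels. Sterol and regulator levels gave 0.40 and 0.38. The regulator level gave less with the other branches: 0.21 and 0.34 with the fatty acid level and 0.20 and 0.18 with the sphingolipid level. With the myelinating markers the sphingolipid level gave 0.81 and 0.49, the fatty acid level 0.70 and 0.51 and the sterol level 0.58 and 0.47. Most of that marker sum came from Pmp22, at 57000 and 56800 CPM in mSC-like cells. Cells of a plate share its library preparation, and the log depth of a cell correlated with the sterol level by 0.01 and 0.12 and with the sphingolipid level by 0.05 and 0.22. The dissociation list gave -0.10 and -0.24 with the sterol level and -0.42 and -0.06 with the sphingolipid level.

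**Figure D5:**
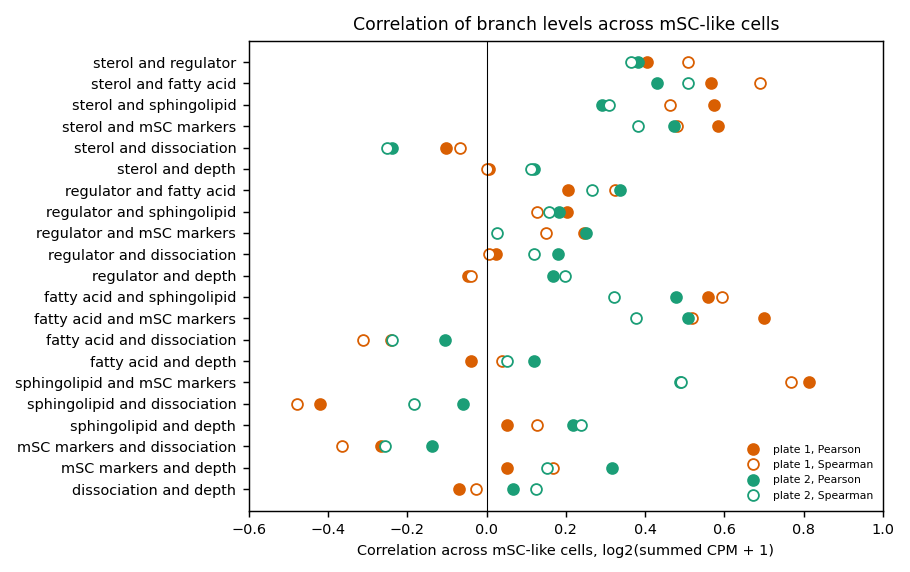
Pearson (filled) and Spearman (open) correlations of branch levels, marker levels and depth across mSC-like cells, by plate. Sphingolipid and myelinating marker levels have the highest value on plate 1, at 0.81, and values with depth lie near 0 for the sterol branch.

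Among single members, 12 were present in enough thinned cells to be paired, over 91 cells of plate 1 and 73 of plate 2. The pair with the highest value on its weaker plate was Fdps and Insig1, at 0.53 and 0.55. The median over 6 pairs of sterol enzymes was 0.49 and 0.40, over 3 pairs of fatty acid genes 0.35 and 0.27, over 6 pairs of sphingolipid enzymes 0.28 and 0.18, and over 51 pairs between branches 0.37 and 0.24. These are descriptions across cells, which are not replicates.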

How the data were processed

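Sorted Schwann cells of 2 plates were sequenced with Smart-Seq2. The authors aligned reads with STAR (2.6.1c in the submitters' processing notes) to GRCm38.p5 and deposited raw counts of reads per gene and cell, made with featureCounts; strand and multimapper settings were not given in the sources used here. Ensembl identifiers were named with GENCODE M21. The members, lists and tests were chosen with earlier results of these data known. Cells with 1500 or more genes were clustered in Seurat 5.3.0 (12 dimensions, resolution 0.5, plates integrated) without the members and other lipid genes. The classes are rebuilt, not the authors' annotation. Genes outside the lipid lists were tested in classes built from the other of 2 random gene subsets; the subsets gave the same class for 93.6% and 95.1% of cells. Lipid genes can still covary with the genes that were clustered, so p-values describe the sums. No doublet caller was run on these sorted wells.

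Counts were summed per plate and class and tested with edgeR 4.0.16 (R 4.3.3; quasi-likelihood, TMM, filterByExpr with a minimum count of 10). The plates pair the sums by label, and plate differences in the classes correlated by 0.16 over 13288 genes, and by 0.11 over 11328 genes within mSC-like cells. The script was tested on simulated sums with the same spread for every gene. These held no single cells, so they do not show how cells with most reads of a gene affect the calls. CPM values are without TMM factors; single-plate ratios add 1 CPM. Plates held 74280540 and 209404659 reads, and the sums 28568549 to 152846637 between classes and 13106244 to 41414452 within mSC-like cells. Values after ± are the SE of the edgeR fit to 4 sums or the SD over 2 plates, as labelled. Exons of 9 members overlap another gene. DESeq2 1.42.0 was an alternative. Named genes were the members called, the 2 per branch with the highest level per kb in mSC-like cells, and the 2 with the largest absolute ratio; of other lists, at most 3 called genes. With 1 plate left out no test remained. Results of a further list of sterol synthesis genes are not reported here.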

Additional observations from a re-analysis of the deposited data

Results flagged for a closer look

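Cells under the minimum of 1500 genes entered no comparison, yet held reads of the members. In the 44 such cells of plate 1 the members summed to 6325 CPM, above the 28.5 CPM that a count of 0 allows (3 reads in the pooled cells). In the 50 such cells of plate 2 they summed to 2993 CPM, above 2.90 CPM. The sphingolipid branch made up 1833 CPM of this on plate 1 and 91.9 CPM on plate 2, and the sterol branch 1691 and 1956 CPM.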

How the results depend on the processing

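Between the classes 8 members were called, 13 without a filter on low counts, 18 with the DESeq2 test, 0 without the replicate block and 2 with the highest cell of each gene left out. Over all genes the calls in these settings were 421 of 13288, 612 of 16760, 1502 of 13288, 43 of 13288 and 157 of 11937. Within mSC-like cells 1 member was called, 4 without the filter, 7 with DESeq2, 0 without the block, 2 in cells with 1000 or more genes, 3 without plate integration, 4 in thinned cells and 7 with the highest cell left out. Over all genes the first 4 of these settings called 119 of 11328, 244 of 14987, 873 of 11328 and 20 of 11328. The last 4 called 185 of 11284, 246 of 11526, 209 of 10493 and 332 of 9707. Leaving out the block ended these 9 calls and added none. The cause of these shifts was not tested.

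With 1 plate left out, branch medians between the classes ran from 1.53 to 1.71 (sterol), 0.172 to 0.339 (regulators), 0.175 to 0.73 (fatty acid) and 0.522 to 0.652 (sphingolipid). Within mSC-like cells they ran from -0.317 to 0.115, -0.369 to 0.403, -0.0585 to 0.206 and 0.135 to 1.13. Between the classes the sterol median was 1.61 in thinned cells, the regulator median 0.729 with 1000 or more genes and 0.395 without integration, the fatty acid median 1.05 with 2500 or more genes, and the sphingolipid median 0.498 with 2500 or more genes and 0.487 with the highest cell left out. Within mSC-like cells the sterol median was -0.326 with 2500 or more genes and 0.33 with the highest cell left out, the regulator median -0.198 in thinned cells and -0.519 with the highest cell left out, and the fatty acid median -0.102 with 2500 or more genes and 0.0925 at an Mfap5 limit of 10 CPM. By Spearman, sterol and fatty acid levels gave 0.691 on plate 1, and fatty acid and sphingolipid levels 0.321 on plate 2. With a minimum of 1 thinned read Mvd was in 4.36% and Fa2h in 27.3% of nm(R)SC-like cells and Fa2h in 90.4% of mSC-like cells, and with 10 reads in 78.3%.

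None of the members called changed direction. Members not called did. Between the classes Gal3st1 had a ratio of 0.01 with DESeq2 and with its size factors, 0.115 without the block and 0.023 with 1000 or more genes, and Sgms1 one of -0.374 in thinned cells. Within mSC-like cells, with the highest cell left out, the ratios were 0.072 for Idi1, 0.265 for Fdps, 0.275 for Sqle, 0.384 for Lss, -1.25 for Insig2, -0.118 for Acaca, -1.26 for Fads2, 0.44 for Gal3st1 and -0.009 for Kdsr. In thinned cells they were 0.164 for Lss, -0.017 for Insig1, -0.379 for Insig2, -0.392 for Fasn, -0.153 for Hsd17b12, 0.219 for Gal3st1 and -0.311 for Kdsr. With 2500 or more genes they were -0.277 for Cyp51, -0.135 for Dhcr7, 1.57 for Srebf1, -0.212 for Acaca, -0.333 for Fasn, -0.106 for Fads1 and -0.098 for Hsd17b12. With 1000 or more genes they were -0.054 for Nsdhl and -0.091 for Hsd17b12. Lss was at 0.098 without the block. Acaca was at -0.005 without the filter, -0.017 and -0.006 at limits of 10 and 200 CPM of Mfap5 and -0.008 split by cluster. Hsd17b12 was at -0.113 at the limit of 10 CPM. Plates and few deeply read cells limit what these sums resolve.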
